A study of Glycine max with 9 samples.

Results

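Of 6 genes in wide use as internal standards in soybean expression assays, 5 were followed in chilled leaves. They were chosen by identifier, from a fixed list and not from their values. The 5 are Glyma12g02310, an ABC transporter also called cons4, Glyma12g05510, an F-box protein called cons6, Glyma18g52780, the actin ACT11, Glyma12g02790, the cyclophilin CYP2, and Glyma02g44460, the elongation factor ELF1B. The sixth, Glyma03g29350, listed as the metalloprotease cons7, was not analysed here. The table lists 49777 genes. Tests ran on the 38985 whose normalized read count averaged 10 or more over all libraries, and 5 of 5 reference genes were among them.

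The RNA came from unifoliate leaves of soybean (Glycine max) cultivar Williams82 (PI518671), harvested from plants 2 weeks old that had grown at 20 °C with 18 h of light and 6 h of darkness, without Rhizobium or fertilizer. Plants were moved to 4 °C at 4 h after dawn, and leaves were collected after 0, 1 and 24 h of cold, with 3 libraries per time and 6 or more plants in each. The 0 h group was unchilled. The 1 h group therefore also differed from it by 1 h of daylight, and the 24 h group by 1 day of age, and these cannot be told apart from the cold. The labels number the libraries 1 to 3 within each time and do not say what a number shares, so p-values measure only the spread between these libraries. No tissue marker was checked, because the identifiers of the table are not paired with gene names.

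A reference gene is a transcript whose level is taken as the same in every sample, so that a target measured by quantitative PCR can be divided by it to cancel differences in input RNA. Any movement of the reference between conditions then enters every target divided by it. The genes in common use belong to basic cell functions. Actin forms the cytoskeleton, cyclophilins are peptidyl-prolyl isomerases that help proteins fold, and elongation factor 1-beta recharges elongation factor 1-alpha with GTP during translation. F-box proteins are the substrate-recognition subunits of SCF ubiquitin ligases, and ABC transporters move substrates across membranes with energy from ATP. Several of these belong to multigene families. How reads that fit several near-identical copies were counted is not given in the sources used here, which leaves the level of any one copy uncertain.

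Library totals were 70979478 to 81875659 normalized read counts. From the spacing of low values, the depth of the 9 libraries was estimated at 18.0 M to 67.7 M counting units (M for mega, a unit being the smallest step between scores), and a reference gene held 226 units or more in each library. If a unit is taken as a single read, which was not shown, the counting error of a single value was between 1.21% and 6.66%. It covers counting only. Over the 38985 genes, the median share of the variation in log2 level was 84.6% between replicate numbers and 5.23% between times, each median taken separately. Libraries numbered 3 stood apart from those numbered 1 and 2. Every time comparison is therefore given both without the replicate number and with it as a block in the model. The difference is the same in both, and only its error changes.

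The F-box gene changed least with time in the cold. Libraries 1, 2 and 3 held 2525, 2674 and 1935 normalized read counts of it at 0 h, 2523, 2527 and 1891 after 1 h in the cold, with 2612, 2552 and 1971 after 24 h. The 3 times overlapped fully, while the 3 libraries numbered 3 were lower than the other 6. Its log2 difference was -0.04 ± 0.06 between 1 h and 0 h (moderated SE with the block, n = 3 per group, limma adjusted p = 0.79) and 0.00 ± 0.06 between 24 h and 0 h (limma adjusted p = 0.988). The 95% interval of the 24 h difference ran from -9.2% to 10.5% with the block and from -28.7% to 40.9% without it. In whole leaves, a lower share of expressing cells and less RNA per cell cannot be told apart, here and in every comparison that follows.

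The ABC transporter gene was the steadiest over all 9 libraries. In libraries 1, 2 and 3 its normalized read counts were 2139, 2476 and 2180 at 0 h, 2384, 2351 and 2539 after 1 h in the cold, with 2278, 2173 and 2394 after 24 h. Neither the times nor the replicate numbers separated. Its highest value was 1.19 times its lowest, and the coefficient of variation over the 9 libraries was 6.06%. The log2 difference was 0.10 ± 0.08 at 1 h (moderated SE with the block, n = 3 per group, limma adjusted p = 0.523) and 0.01 ± 0.08 at 24 h (limma adjusted p = 0.955). At 24 h its 95% interval ran from -10.6% to 13.8% with the block and from -19.2% to 25.9% without it. Library 2 went the other way from libraries 1 and 3 at each time, with log2 differences from 0 h of -0.07 at 1 h and -0.19 at 24 h, compared with 0.16 and 0.09 in library 1 and 0.22 and 0.14 in library 3. Both differences of library 2 start from the same 0 h value, 2476, the highest at 0 h. Between 24 h and 1 h library 2 moved as the others did, at -0.11, compared with -0.07 in library 1 and -0.08 in library 3.

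CYP2 was higher after a day in the cold. Its normalized read counts in libraries 1, 2 and 3 were 5900, 5403 and 5789 at 0 h, 6821, 6513 and 5700 after 1 h in the cold, with 7342, 7099 and 6578 after 24 h. Each 24 h library was above each 0 h library, while the 1 h libraries overlapped the 0 h ones through library 3. The number of all genes that separated in the same way was not counted, so this is no trait of CYP2. The mean went from 5697 ± 261 at 0 h to 7006 ± 390 at 24 h (SD, n = 3), a difference of 22.9% with a 95% interval of 10.2% to 37.1% with the block. On the log2 scale this was 0.30 ± 0.07 (moderated SE, limma adjusted p = 0.0398 with the block), and the difference was 0.32, 0.39 and 0.18 in libraries 1, 2 and 3. Without the block the same difference had an adjusted p of 1 in limma, with an interval of -2.17% to 54.5%. The call was close to the threshold. It was made in 9 of 21 fits with the block, over which the adjusted p ran from 0.0212 to 0.319, and in 0 of 21 fits without it. It was lost without library 1 or library 2 of 0 h (limma adjusted p = 0.166 and 0.182), without library 1 or 3 of 1 h (limma adjusted p = 0.0567 and 0.0549) and without library 1, 2 or 3 of 24 h (limma adjusted p = 0.173, 0.189 and 0.0611). With equal library totals it was also lost, at a log2 difference of 0.26 (limma adjusted p = 0.0616). Calls over all genes also ranged widely over the fits with the block, from 1 to 2119, with 1993 in the unaltered one. At 1 h the log2 difference of CYP2 from 0 h was 0.15 ± 0.07 with the block (limma adjusted p = 0.266).

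ELF1B was higher at both cold times in each replicate number, and neither difference passed the test. Libraries 1, 2 and 3 held 848, 931 and 743 normalized read counts of ELF1B at 0 h, 1094, 985 and 925 after 1 h in the cold, with 970, 1030 and 927 after 24 h. The library numbered 2 at 0 h lay above the library numbered 3 at each cold time, so the groups overlapped by that library alone. The log2 difference was 0.25 ± 0.09 at 1 h (moderated SE with the block, n = 3 per group, limma adjusted p = 0.131) and 0.22 ± 0.09 at 24 h (limma adjusted p = 0.187). The 95% intervals with the block were 4.47% to 36.2% at 1 h and 1.95% to 33% at 24 h, before any adjustment for the number of genes tested. Without the block they ran from -7.77% to 54.3% at 1 h and from -10.0% to 50.6% at 24 h. A missed threshold does not show that ELF1B was steady.

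ACT11 varied most, and mainly by replicate number. Its normalized read counts in libraries 1, 2 and 3 were 3429, 3885 and 8108 at 0 h, 4605, 3888 and 9038 after 1 h in the cold, with 4226, 4435 and 8432 after 24 h. Each library numbered 3 held more than any of the other 6, and the times overlapped. The log2 difference was 0.19 ± 0.09 at 1 h (moderated SE with the block, n = 3 per group, limma adjusted p = 0.239) and 0.18 ± 0.09 at 24 h (limma adjusted p = 0.269). The 1 h difference was uneven, with log2 values of 0.43, 0.00 and 0.16 in libraries 1, 2 and 3. The 95% intervals with the block were 0.29% to 30.5% at 1 h and -0.50% to 29.5% at 24 h, before any adjustment for the number of genes tested. Without the block the 95% interval of the 24 h difference ran from -46.9% to 143%. As with ELF1B, the missed threshold does not show that ACT11 was steady over time.

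**Figure D1:**
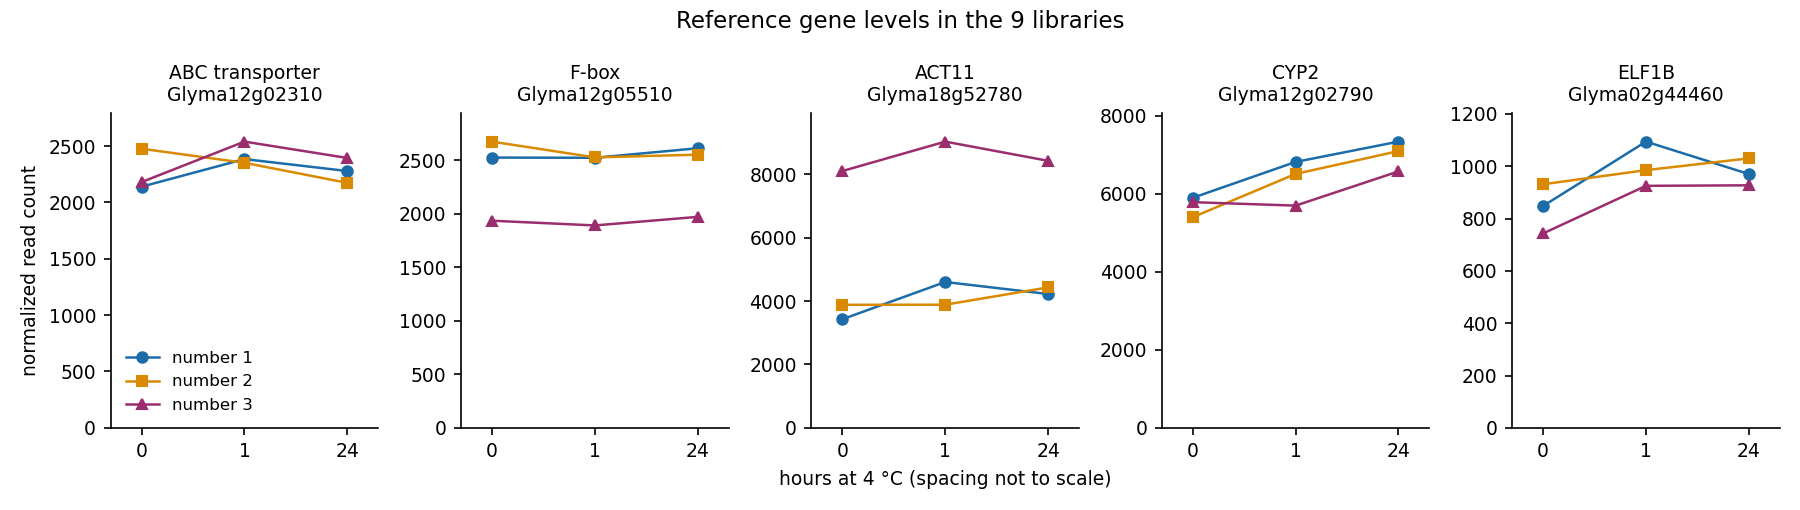
Normalized read count (vertical axes, from 0) of each of the 5 reference genes against hours at 4 °C, 1 point per library, with libraries of the same replicate number joined by a line. ACT11 in libraries numbered 3 lies at 8108 to 9038 and in the other 6 at 3429 to 4605, whereas the ABC transporter gene stays within 2139 to 2539 in all 9.

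The calls among the 5 genes were set beside those over the whole table, and 5 genes are too few to compare the rates. With the block, 0 of 5 were called between 1 h and 0 h, where 4.47% of the 38985 genes tested were called, 2.4% higher and 2.07% lower. Between 24 h and 0 h 1 of 5 was called, CYP2, which was higher, where 5.11% of genes were called, 3.01% higher and 2.1% lower. Between 24 h and 1 h 0 of 5 were called and 0% of genes. Without the block, 0 of 5 and 0% of genes were called in each of the 3 comparisons (limma, 539, 549 and 68 genes at an unadjusted p under 0.05). Of the 5, 4 had a higher mean log2 value at 1 h and 5 at 24 h than at 0 h, with median log2 differences of 0.15 and 0.18, while 46.7% and 46.9% of all genes were higher, with medians of -0.02 and -0.02. Both comparisons share the 0 h libraries. Between 24 h and 1 h the median of the 5 was -0.01, and CYP2 alone of the 5 differed by more than 0.1 on the log2 scale, at 0.15 ± 0.07 with the block (limma adjusted p = 0.877).

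**Figure D2:**
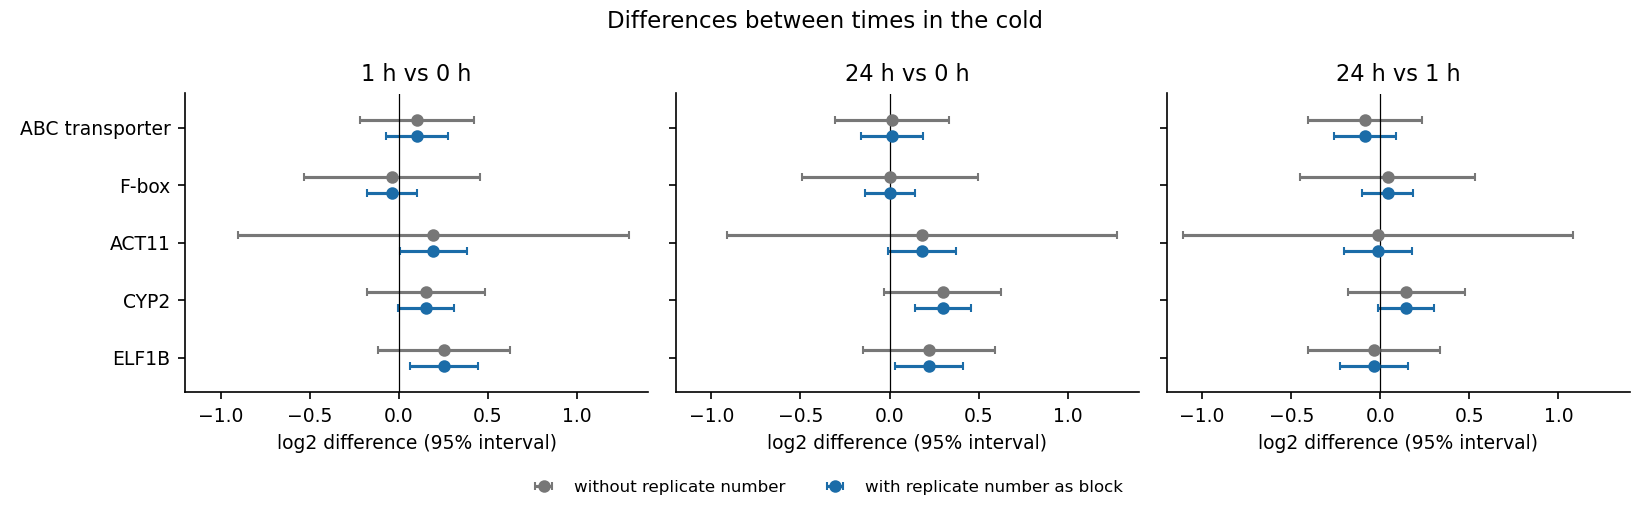
Log2 difference between times (horizontal axes) for the 5 reference genes, with 95% intervals from limma, unadjusted for the number of genes, without the replicate number (grey) and with it as a block (blue), n = 3 libraries per time. The blue intervals are narrower throughout, and at 24 h against 0 h the blue interval of CYP2 spans 0.14 to 0.46.

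The replicate numbers separated 2 of the 5 genes. Between numbers 3 and 1, over the 3 times, ACT11 was 2.10-fold, or 1.07 ± 0.09 on the log2 scale, higher in number 3 (moderated SE, n = 3 libraries per number, limma adjusted p = 6.67e-07). The F-box gene was lower, by -0.40 ± 0.06 on that scale or -24.3% (limma adjusted p = 0.000167). The log2 difference was 1.07 ± 0.09 for ACT11 between numbers 3 and 2 and -0.42 ± 0.06 for the F-box gene (limma adjusted p = 7.49e-07 and 0.000129). The other 3 were not called, with log2 differences between numbers 3 and 1 of 0.06 ± 0.08 for the ABC transporter gene, -0.15 ± 0.07 for CYP2 and -0.17 ± 0.09 for ELF1B (limma adjusted p = 0.48, 0.0806 and 0.104). ELF1B did not overlap between numbers 3 and 2, at a log2 difference of -0.19 ± 0.09 (limma adjusted p = 0.0692). How many of all genes also did not overlap was not counted, so this is no trait of ELF1B. The same holds for the separation of number 3 in ACT11 and the F-box gene. The 2 of 5 called compare with 75.2% of all genes tested between numbers 3 and 1, 38.9% higher in number 3 as ACT11 was and 36.4% lower as the F-box gene was. Between numbers 3 and 2 it was 73.7%, with 37.9% higher and 35.8% lower. Between numbers 2 and 1, 0 of 5 were called and 4.85% of all genes, 3.7% higher and 1.15% lower. The largest difference among the 5 was then -0.08 ± 0.07, for CYP2 (limma adjusted p = 0.667).

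The direction of the ABC transporter gene between numbers depended on the scale. The median log2 difference of all genes was 0.02 between numbers 3 and 1 and 0.02 between numbers 3 and 2 on the deposited scale, and -0.21 and -0.17 with quantile normalization. With that normalization the ABC transporter gene was at -0.34 and -0.31 on the log2 scale, and 5 of 5 genes were called in each (limma adjusted p = 0.00197 and 0.00367 for the ABC transporter gene). Of all 38985 genes tested, 29791 and 29170 were called as well. Relative to the median of all genes the ABC transporter gene was then -0.12 and -0.14, compared with 0.04 and -0.0012 on the deposited scale. With equal library totals the median of all genes was -0.10 between numbers 3 and 1 and -0.07 between numbers 3 and 2. Then 4 of 5 genes were called in the first comparison and 3 of 5 in the second, where ELF1B joined ACT11 and the F-box gene (limma adjusted p = 0.0128) and CYP2 did not (limma adjusted p = 0.0535). Equal totals called 29431 of all 38985 genes in the first comparison and 28837 in the second. Relative to the median of all genes, ACT11 was 0.90 to 1.05 on the log2 scale and the F-box gene -0.57 to -0.42 over the 3 scalings and both comparisons.

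Most of the spread of ACT11 and the F-box gene lay between numbers, and most of that of CYP2 and ELF1B between times. As a share of each gene's sum of squares, replicate numbers held 94.5% in ACT11 and 97.9% in the F-box gene, and times 2.95% and 0.93%. In CYP2 and ELF1B times held 69.5% and 54.6%, and numbers 17.3% and 30.5%. The ABC transporter gene, which varied little, had 60.4% in neither.

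The 5 were ranked by the SD of log2 values over the 9 libraries against the 11790 genes that averaged 1000 or more normalized read counts, as a description. The ABC transporter gene had an SD of 0.09, and 2.53% of those genes had a smaller one. CYP2 had an SD of 0.15 and ELF1B of 0.16, with 13% and 14.2% of those genes below them, and the F-box gene an SD of 0.21, with 21.8% below it. ACT11 had an SD of 0.55, and 61% of those genes were steadier. The median SD of those genes was 0.42. Ranked by the range of the 3 time means alone the order changed. The F-box gene had a range of 0.04, with 4.77% of genes below it, and the ABC transporter gene 0.10, with 21.6% below it. ACT11 had 0.19, close to the median of 0.19, while ELF1B at 0.25 and CYP2 at 0.30 had wider ranges than 67.7% and 75.1% of those genes.

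**Figure D3:**
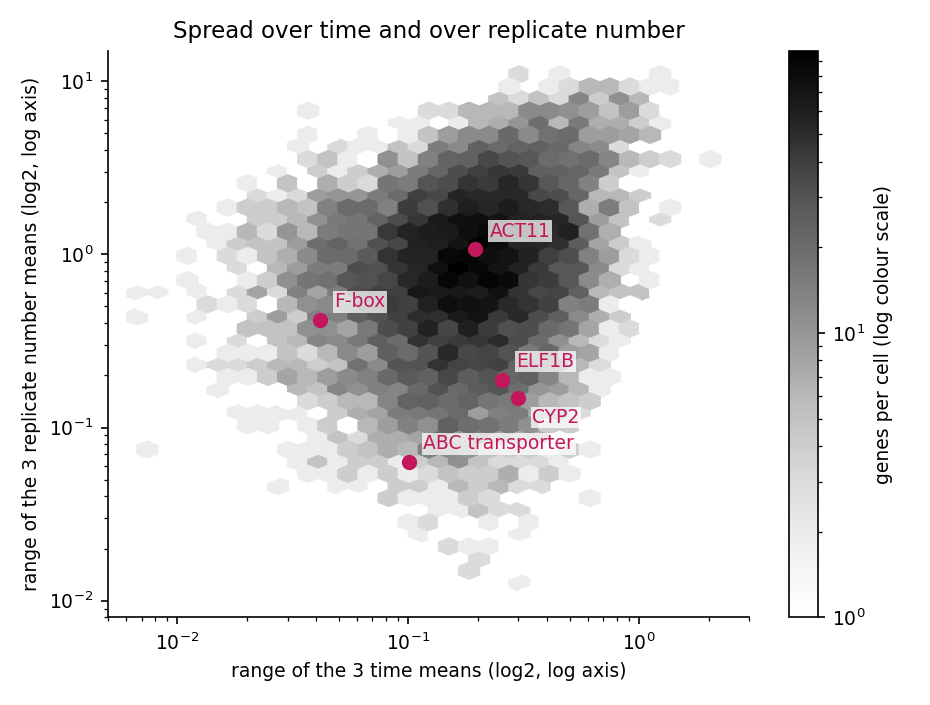
Range of the 3 time means (horizontal, log2 units, log axis) against the range of the 3 replicate number means (vertical, log2 units, log axis), with the 11790 genes of mean 1000 or more as grey cells shaded by their number of genes and the 5 reference genes as points. ACT11 lies near the centre of the grey cells, the F-box gene to their left, and the other 3 towards their lower edge.

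For comparison, the 2 genes of smallest SD among the 11790 were Glyma07g37570, at 3338 to 3549 normalized read counts over the 9 libraries with an SD of 0.03, and Glyma04g15990, at 1375 to 1477 with an SD of 0.03. They were selected on these values, so their steadiness here is a description of these libraries.

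Reference genes are usually judged by their ratios to each other, because the true input is unknown. The pairwise variation M of a gene is the mean, over the other reference genes, of the SD of their log2 ratio across libraries. Values under 1.5, and under 0.5 in uniform material, are commonly accepted. Over the 9 libraries M was 0.277 for ELF1B, 0.281 for the ABC transporter gene, 0.289 for CYP2, 0.348 for the F-box gene and 0.628 for ACT11. All 5 lay under 1.5 and 4 of 5 under 0.5. The first 3 of these differed by little. On removing the gene of highest M in turn, ACT11 left first, then the F-box gene and the ABC transporter gene. The last pair, CYP2 and ELF1B, had an SD of their log2 ratio of 0.14. A ratio stays steady when both genes move together, so a low M does not show that either was steady. These 2 had the widest ranges of the time means among the 5, at 0.30 and 0.25 on the log2 scale. The F-box and ABC transporter genes, which left earlier, had the narrowest, at 0.04 and 0.10.

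Within a replicate number the 5 genes moved far less against each other. Over the 3 times, the mean M was 0.131, 0.155 and 0.125 in numbers 1, 2 and 3, compared with 0.365 over all 9 libraries. Without the libraries numbered 3 the mean M was 0.136, and ACT11 fell from the highest M to 0.125, near ELF1B at 0.112. CYP2 then had the highest, at 0.164. Without number 1 or number 2 the mean M was 0.397 or 0.386. The ACT11 to F-box ratio moved most, with the mean ratio of one number 2.8 times that of another, and its highest value over the 9 libraries was 3.52 times its lowest. Between times, the widest mean ratios were those of CYP2 to the F-box gene, at 1.23-fold, of ELF1B to the F-box gene, at 1.23-fold, and of CYP2 to the ABC transporter gene, at 1.22-fold. The ratio of ACT11 to ELF1B moved 1.04-fold between times.

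**Figure D4:**
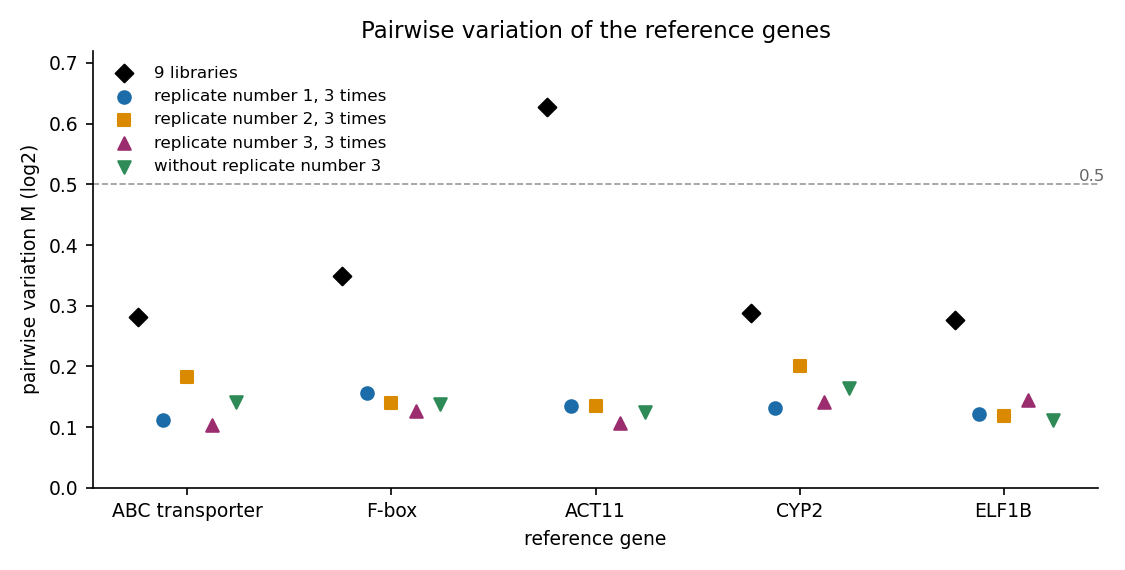
Pairwise variation M (vertical axis, log2 units, from 0) of each reference gene over all 9 libraries, within each replicate number over the 3 times, and over the 6 libraries left without number 3, with a dashed line at 0.5. ACT11 lies at 0.628 over all libraries and at 0.107 to 0.135 within a number.

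How far the choice of reference alters a reading was shown on a cold-responding target. Glyma14g37440, taken from an earlier account of these data for its strong response to cold, was at 291, 455 and 185 normalized read counts in libraries 1, 2 and 3 at 0 h. Its counts were 3909, 5979 and 2043 at 1 h and 13323, 15459 and 4076 at 24 h. Undivided, the 24 h change was 5.02 ± 0.53 on the log2 scale (SD over the 3 numbers, n = 3). Divided by a reference it was 5.01 ± 0.53 for the F-box gene, 5 ± 0.60 for the ABC transporter gene, 4.83 ± 0.41 for ACT11, 4.80 ± 0.60 for ELF1B and 4.72 ± 0.46 for CYP2. The references thus gave 26.3-fold to 32.3-fold. On the log2 scale, division takes the reference's own change off that of the target. The differences between references therefore restate their own changes and would be the same for any target. At 1 h the references gave 10.4-fold with ELF1B to 12.8-fold with the F-box gene, and 12.4-fold undivided.

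The level of that target within a time depended more on the reference, again through the reference's own differences between libraries. At 24 h it was 3.27 times as high in library 1 as in library 3 when undivided. Divided by the F-box gene the ratio was 2.47, by ELF1B 3.12, by CYP2 2.93 and by the ABC transporter gene 3.43. Divided by ACT11 it was 6.52. At 0 h the same ratio was 1.57 undivided, 1.2 with the F-box gene and 3.71 with ACT11.

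**Figure D5:**
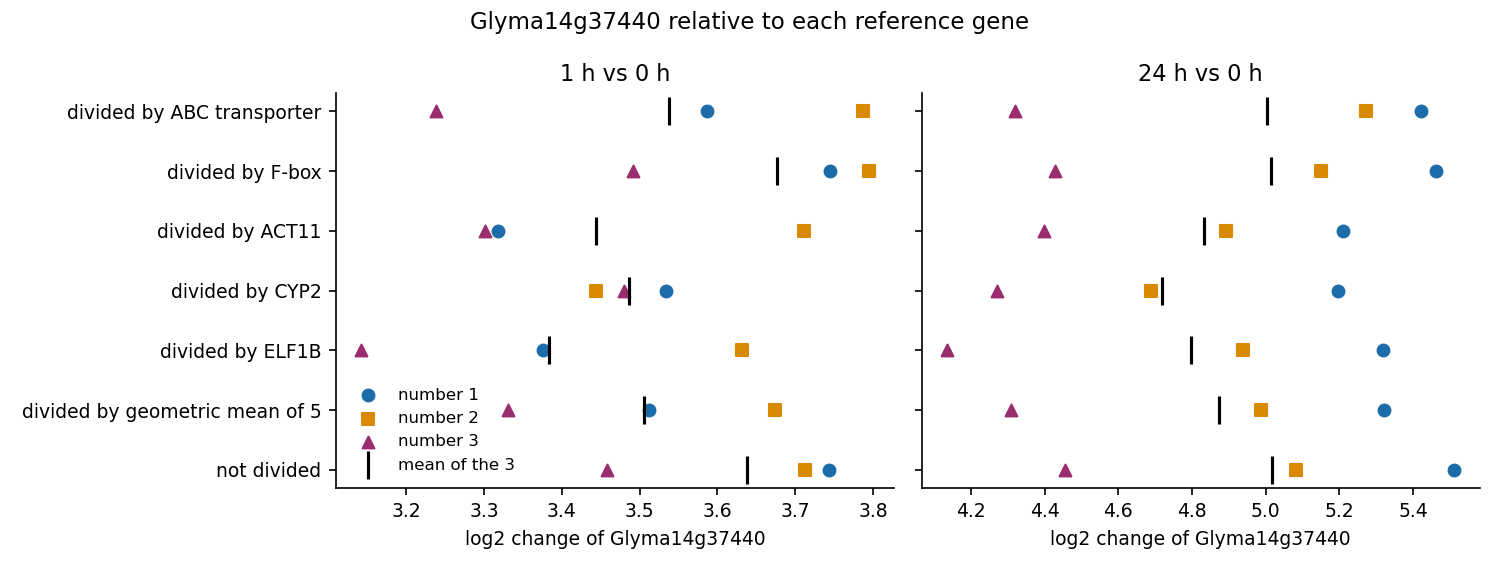
Log2 change of Glyma14g37440 from 0 h (horizontal axes) at 1 h (left) and 24 h (right), divided by each reference gene, by the geometric mean of the 5, or not divided, with 1 point per replicate number and a bar at their mean. The axes do not start at 0, and at 24 h the means lie between 4.72 and 5.02 while single numbers span 4.14 to 5.51.

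The number and direction of the genes called also depended on the reference. Such division lowers the log2 difference of every gene by about that of the reference. The balance of higher and lower calls therefore largely restates the differences of the references given above. When each library was divided by the geometric mean of the 5 references, the median log2 difference of all genes was -0.15 at 1 h and -0.16 at 24 h, while the mean of the 5 was itself higher by 0.13 and 0.14. It was higher in 3 of 3 replicate numbers at each time, by 0.23, 0.04 and 0.13 at 1 h and by 0.19, 0.09 and 0.14 at 24 h. With the block, 538 genes were then called higher and 3083 lower at 1 h, compared with 934 and 808 on the deposited scale. At 24 h the numbers were 571 and 3178, compared with 1173 and 820. Division by the F-box gene alone left 1125 higher and 460 lower at 1 h and 1041 and 714 at 24 h, the split closest to the deposited scale at 24 h among the single references. Division by CYP2 alone gave 280 higher and 11808 lower at 24 h, and division by ELF1B alone 217 higher and 7365 lower at 1 h. Division by the ABC transporter gene gave 187 and 587 at 1 h and 429 and 335 at 24 h. With ACT11 the numbers were 143 and 1797 at 1 h and 173 and 1241 at 24 h. With equal library totals in place of a reference, 1446 genes were called higher and 434 lower at 1 h, and 918 and 1146 at 24 h. The calls on the deposited scale varied with single libraries. They ran from 73 to 2178 at 1 h without 1 library at a time and from 225 to 1964 at 24 h, lowest without library 1 of 1 h and library 2 of 24 h. Without number 1 they were 18 at 1 h and 42 at 24 h, and with moderation that had neither trend nor robust weights they were 0 and 1 (limma with the block, 6693 and 6690 genes at an unadjusted p under 0.05). The input of RNA per library is not given in the sources used here.

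The genes most like each reference were sought among those same abundant genes, by Pearson's r of log2 values over the 9 libraries, which share depth and replicate number. ACT11 followed Glyma04g03110 (r = 0.998) and the F-box gene followed Glyma10g29371 (r = 0.997). In both cases the likeness lay in the libraries numbered 3. Glyma04g03110 was at 4027 to 4188 normalized read counts in those and at 2031 to 2556 in the other 6, and Glyma10g29371 at 1370 to 1493 and 2577 to 2996. Such likeness was common, with r over 0.9 for 3619 and 3093 of 11789 genes. ELF1B followed Glyma13g36730 (r = 0.975), CYP2 followed Glyma11g10550 (r = 0.929, with 4 genes over 0.9) and the ABC transporter gene followed Glyma16g04810 (r = 0.804, with 0 genes over 0.9). The 0 h libraries held 20531 to 20989 normalized read counts of Glyma11g10550 and the 24 h libraries 26516 to 33529.

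With the mean of each replicate number subtracted, the nearest genes were others. CYP2 was then nearest to Glyma20g24040 (r = 0.990), which was at 3182, 3303 and 2471 normalized read counts in libraries 1, 2 and 3 of 0 h, and 3674, 3888 and 2692 in those of 24 h. ELF1B was nearest to Glyma08g20370 (r = 0.988), whose counts were 906 to 999 in the 0 h libraries, 1099 to 1229 in the 1 h libraries and 1048 to 1170 in the 24 h libraries. ACT11 was nearest to Glyma06g13840 (r = 0.985), the F-box gene to Glyma13g36530 (r = 0.975) and the ABC transporter gene to Glyma19g40930 (r = 0.972). Over 0.9 lay 415 genes for ELF1B, 307 for ACT11, 120 for CYP2, 19 for the F-box gene and 14 for the ABC transporter gene, out of 11789 or, for ELF1B, 11790. By either measure the nearest gene was picked as the highest r among so many genes and from few libraries. Unrelated genes can reach a high r in that way, and whether these exceeded it was not tested.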

How the data were processed

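Total RNA was made into libraries by the TruSeq v2 protocol, per the labels' protocols. For each gene the authors deposited a score in every library, a read count that had been normalized and rounded to a whole number. Cutadapt 1.2.1 and DESeq 1.12 are named in the submitters' processing notes, without their roles. The aligner, counter, genome build and use of strand are not given in the sources used here. Whole reads were not recovered, because a minority of low scores lay off the steps of 1.17 to 4.13 that the others followed, so no count test was run.

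Scores were analysed as log2(score + 1) over the 38985 genes averaging 10 or more, with limma 3.58.1 in R 4.3.3, in 1 fit of 9 libraries. Settings were trend and robust moderation, two-sided tests, Benjamini-Hochberg over all genes tested and a threshold of 0.05. The fit was also run on simulated data, drawn with the same added log2 spread for every gene. That run cannot show how the moderation handles the uneven spread of these libraries. The main time model has no replicate term. The number was also fitted as a block, because same-numbered libraries deviated together from their time means (correlations of 0.689 to 0.950 across genes, 9 of 9 libraries closest to their own number). This pairing comes from the data. Number contrasts used time and number together. Counting units were estimated from the spacing of scores of 1 to 40. Plots were made with matplotlib 3.10.9 in Python 3.11.15.

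The members, the target, the gene naming rule and the tests were chosen with earlier results of these data known. Named genes were the listed ones, for each the most similar gene by each measure, the 2 steadiest genes averaging 1000 or more, and the target. The names of the 5 genes come from the list; 0 identifiers matched the 59048 genes of a RefSeq table, which holds CYP2 on chromosome 12 and ELF1B on chromosome 2, the chromosomes that these identifiers name, and has 0 entries under ACT11. No sequences were used here.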

Additional observations from a re-analysis of the deposited data

How the results depend on the processing

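Adding the replicate block raised the number of reference genes called between 24 h and 0 h from 0 to 1, CYP2, and that of all 38985 genes from 0 to 1993. It was 1 as well with the block under pseudocounts of 0.5 and 5, no filter, a mean of at least 50, quantile normalization, without library 3 of 0 h, without library 2 of 1 h and without number 3, and 0 under the other 12 settings with the block. Of all genes tested, 1569 to 2119 were called in the altered settings that kept the call of CYP2 and 1 to 2064 in those that lost it. The block changed no other call of a reference gene. Between numbers 3 and 1, equal library totals gave 4 of 5 genes called and quantile normalization 5 of 5, beside 29431 and 29791 of all 38985. Between numbers 3 and 2 these gave 3 and 5, beside 28837 and 29170 of all genes. Quantile normalization turned the ABC transporter gene to -0.34 and -0.31 against numbers 1 and 2. Without 1 library at a time, 2 to 3 reference genes were called in each, beside 26989 to 29434 and 26365 to 28643 of all genes. ACT11 and the F-box gene kept their calls and directions between number 3 and each other number in 16 of 16 alternatives. Of 855 recomputed differences, 77 that were called in neither of the settings compared changed sign, 70 of them at under 0.1, and the largest was 0.35 for ACT11 between 24 h and 1 h. The mean M was 0.332 to 0.382 without each library, 0.397, 0.386 and 0.136 without numbers 1, 2 and 3, and 0.144 with the number means subtracted. Division of all scores by a reference, with the block, moved the 1742 genes called at 1 h to 3621 (geometric mean), 774 (ABC transporter), 3497 (CYP2) and 7582 (ELF1B), and the 1993 at 24 h to 3749, 764, 12088 and 4586. Between 24 h and 1 h, 1 gene was called with ACT11 and 1 with CYP2, instead of 0. Division by single genes was chosen after the data were seen. Depth limits ELF1B most, the gene with the largest counting error.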
